A study of Mus musculus with 32 samples.

Results

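The genes described are the glycolytic enzymes Hk1, Gpi1, Pfkm, Pfkp, Aldoa, Tpi1, Pgk1, Pgam1, Eno2 and Ldha, in the frontal cortex (FCtx) of female mice after voluntary ethanol drinking. They were chosen by name, as all probes of the deposited array table whose gene symbol is 1 of these 10. The table held 15 such probes for 9 of the genes, out of 25697 probes for 18138 gene symbols. Gpi1, the gene of glucose-6-phosphate isomerase, was not analysed here. RNA from the dorsal FCtx of 32 mice was hybridised to Illumina MouseRef-8 BeadChips, 1 array for each mouse. The 20 ethanol-treated mice chose between a bottle with 20% ethanol and a bottle with water in a daily session in the dark for 20 days, and the 12 controls were untreated. All mice were F1 hybrids, given in the labels as C57BL/6J x FVB/NJ F1 and in the Methods as reciprocal crosses of these strains, and their age is not given in the sources used here. Intake was voluntary, and the amount that each mouse drank was not used here.

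The 32 arrays were on 4 chips of 8. Chips 1 and 2 held ethanol-treated mice only and chip 4 held controls only. Chip 3 held 4 mice of each group, with its controls at the even positions and its ethanol-treated mice at the odd ones, of the positions lettered A to H. The difference between groups over all arrays was therefore in large part a difference between chips, and on chip 3 treatment and position cannot be told apart. Between 9480 and 11544 probes were detected on an array, and the lowest number and the lowest median signal came from control mouse C66 on chip 4. Of the 11 neuron markers listed, such as Snap25 and Camk2a, 7 were tested. On chip 3, 1 of the 7 was higher and 2 were lower in ethanol-treated mice, and over all arrays 1 was higher and 1 lower (limma, FDR below 10%). For these and the other markers, the share of all genes that passed was 16.6% on chip 3 and 24.7% over all arrays. On chip 3, 6 of 9 tested oligodendrocyte markers were lower in ethanol-treated mice, and 2 of 3 tested olfactory bulb markers were higher, where 16.6% of all genes passed (limma, FDR below 10%). Astrocyte markers were higher in 3 of 9 and endothelial markers in 2 of 6 on chip 3, and over all arrays 3 were higher and 1 lower of the former and 2 higher and 1 lower of the latter. Of 10 microglia markers 1 was lower in both comparisons, and 1 of 4 striatum markers was lower on chip 3. The mean level of the oligodendrocyte list lay between 10.07 and 10.27 in the 4 ethanol-treated mice of chip 3 and between 10.18 and 10.98 in its 4 controls. That of the olfactory bulb list lay between 8.94 and 9.27 and between 7.95 and 8.77. The part of these markers in the results was not tested. Over all arrays 1 of the 9 oligodendrocyte markers was lower and 0 of the 3 olfactory bulb markers passed (limma, 0 at an unadjusted p below 0.05). In tissue RNA, fewer cells of a type and less RNA per cell cannot be told apart.

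Glycolysis breaks glucose down to pyruvate in the cytosol and yields ATP and NADH, and glucose is the main fuel of the adult brain. Hexokinase traps glucose in the cell, phosphofructokinase commits it to the pathway, and aldolase splits the sugar bisphosphate into triose phosphates that triose phosphate isomerase (Tpi1) interconverts. Phosphoglycerate kinase, phosphoglycerate mutase and enolase carry the trioses on towards pyruvate, which lactate dehydrogenase can reduce to lactate.

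Tpi1, Pfkm and Pfkp each had several probes, and the probes of 1 gene did not give the same differences. Each probe is 50 bases long. Bases 1 to 30 of the 8 tested probes of these genes are shown, 5′ to 3′ and in lower case, and each probe is named by the base of its RefSeq transcript at which the deposited table places its start.
Tpi1 at base 234: ggccagtggagagagccgtgcgtttgtact
Tpi1 at base 1457: tcagagctttcgggtctgaattcggtatac
Tpi1 at base 1519: cccccacggtgccaaagcccctgtattgtg
Pfkm at base 405: cctcactggggctgacactttccgttcaga
Pfkm at base 2509: aggtttccctgtactccatgcctgcaacca
Pfkm at base 2602: ggtcacacaggctgggtctctctagtgcta
Pfkp at base 513: cacagtgcagaagtattcctacctcaacgt
Pfkp at base 1632: ccccatggttatggttcctgctactgtctc

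No probe of the 9 genes shared its whole sequence with another probe of the table. The Tpi1 probes at bases 1457 and 1519 start 62 bases apart, near the 3′ end of the same transcript. The Tpi1 probe at base 234 spans the start of the gene as RefSeq annotates it on 1 build (GRCm38.p6, chromosome 6, minus strand, gene at 124810586 to 124814158). Of its 50 bases, 21 lie before that start and 29 from it on. The 250 bases before the start, chr6:124814159-124814408, are shown on the minus strand with the 21 bases of the probe in capitals.
Tpi1 upstream: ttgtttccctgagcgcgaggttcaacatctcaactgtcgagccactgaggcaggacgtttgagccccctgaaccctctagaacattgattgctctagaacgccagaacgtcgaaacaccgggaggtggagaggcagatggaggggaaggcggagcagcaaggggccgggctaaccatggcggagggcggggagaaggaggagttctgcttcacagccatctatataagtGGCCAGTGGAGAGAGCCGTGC

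Probes were tested when they were detected at a detection p below 0.01 on at least 24 of the 32 arrays, which 10187 probes of 7926 genes were. Of the 15 probes, 14 passed, and all 9 genes had at least 1 tested probe. The third Pfkp probe, at base 3554, was detected on 17 arrays and was not tested. Where 1 value stands for a gene, it is that of its tested probe with the highest mean, which was the probe at base 2602 for Pfkm, at base 1632 for Pfkp and at base 1519 for Tpi1. All levels are on a log2 scale after variance stabilization and quantile normalization, and levels of different probes cannot be compared with one another.

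Of the 9 genes, 3 differed between all ethanol-treated mice and all controls at a false discovery rate (FDR) below 10% by limma: Hk1 and Pgk1 were higher and Tpi1 was lower. The share, 3 of 9, stood beside 24.7% of all 7926 genes tested. Pgk1 was detected on a smaller share of control arrays than of ethanol arrays, so its passing of the detection filter depended in part on group. With only probes detected on all arrays, which leaves Pgk1 out, 2 of 8 genes passed an FDR of 10% by limma, 1 higher and 1 lower. With all probes of the table, 3 of 9 passed by limma, 2 higher and 1 lower. At an FDR below 1%, 0 of the 9 genes passed by limma, beside 7.86% of all genes, and 4 of the 9 had an unadjusted p below 0.05. Counted by probe, 4 of the 14 were higher and 1 was lower at an FDR below 10%, where 25.5% of all probes passed, and 1 of the 14 passed an FDR of 1%, where 8.18% of all probes did. The median difference of the 9 genes was 0.081, and that of all genes was -0.0076. With chip as a block, whether fixed or random, 0 of the 9 genes passed an FDR of 10% by limma, and 2 had an unadjusted p below 0.05 under either block. The shares of all genes under these blocks and under the other filters were not counted.

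Hk1, on chromosome 10, encodes the hexokinase of brain, the enzyme of the entry step. Over the 20 ethanol arrays its level ran from 8.39 to 9.42 around a median of 8.92, and over the 12 control arrays from 8.27 to 8.9995 around 8.79. The groups overlapped, and the control median was exceeded by 16 of the 20 ethanol-treated mice. Hk1 was higher by 0.27 in ethanol-treated mice (standard error 0.084, adjusted p = 0.0218 by limma). On chip 3 the level of Hk1 was 8.59, 8.92, 8.83 and 8.92 in the ethanol-treated mice and 8.87, 8.9995, 8.86 and 8.52 in the controls. The sets overlapped there, with a difference of 0.0073 (adjusted p = 0.974 by limma). With chip as a random block the difference was 0.21 (adjusted p = 0.214 by limma).

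Pfkm and Pfkp encode the muscle and platelet types of phosphofructokinase, both of which brain also makes. For the Pfkm probe at base 405, the ethanol arrays ran from 7.98 to 9.73 (median 8.92) and the control arrays from 7.67 to 8.88 (median 8.29). The groups overlapped, and 19 of 20 ethanol-treated mice exceeded the control median. This probe rose by 0.68 (standard error 0.14, adjusted p = 0.000847 by limma), and it was the 1 probe of the 14 that passed an FDR of 1%. On chip 3 its level was 8.56, 8.75, 8.95 and 8.74 in the ethanol-treated mice and 8.45, 8.17, 8.10 and 7.91 in the controls. There the 4 ethanol-treated mice lay above the 4 controls, by 0.59 on average (standard error 0.10, adjusted p = 0.00203 by limma). With chip as a random block the difference over all arrays was 0.66 (adjusted p = 0.0205 by limma), and a fixed chip block, which leaves only the difference of chip 3, gave an adjusted p of 0.204 by limma.

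The other Pfkm probes, close to the 3′ end, did not follow. At base 2602 the difference over all arrays was 0.081 (95% interval 0.0098 to 0.15, adjusted p = 0.104 by limma), and at base 2509 it was -0.060 (95% interval -0.16 to 0.037, adjusted p = 0.412 by limma). On chip 3 the probe at base 2509 was lower in ethanol-treated mice by -0.26 (adjusted p = 0.0623 by limma), with levels of 11.17, 11.41, 11.38 and 11.60 against 11.52, 11.66, 11.71 and 11.71. Only the highest ethanol-treated mouse overlapped with the controls. The level at base 405 less that at base 2602 on the same array had a mean of -4.08 ± 0.44 (SD, n = 20) with ethanol and of -4.68 ± 0.42 (SD, n = 12) without it. The probes therefore differed unequally between the groups, by 0.60 (permutation test over all arrays without regard to chip, two-sided, p = 0.00068). This was 1 of 21 such tests on pairs of probes, which were chosen with the values known, and its adjusted p over the 21 was 0.00357 (permutation test). Group and chip cannot be told apart by this test. On chip 3 alone these means were -4.31 and -4.80, a difference of 0.49 (exact permutation test, p = 0.0286, the smallest that 4 against 4 allows, adjusted p = 0.0738).

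For Pfkp, the upstream probe again had the larger difference. In both genes the upstream probe also had the lowest signal of the tested probes. In ethanol-treated mice the median signal was 541 at Pfkm base 405, 3100 at base 2509 and 8952 at base 2602. For Pfkp it was 684 at base 513 and 2295 at base 1632, so position and signal cannot be told apart. The probe at base 513 ran from 8.70 to 9.60 over the ethanol arrays (median 9.19) and from 7.86 to 9.46 over the control arrays (median 8.93). The ranges overlapped, and 18 of 20 ethanol-treated mice exceeded the control median. It rose by 0.37 (standard error 0.11, adjusted p = 0.0156 by limma), whereas the probe at base 1632 differed by 0.13 (95% interval -0.021 to 0.28, adjusted p = 0.225 by limma). The gap between both probes differed between the groups by 0.24 (permutation test without regard to chip, p = 0.0108, adjusted p = 0.0454). Within chip 3 the gap differed by 0.14 (exact permutation test, p = 0.286, adjusted p = 0.459). On chip 3 the probe at base 513 was 9.16, 9.22, 9.24 and 9.04 in the ethanol-treated mice and 9.33, 9.46, 9.17 and 9.06 in the controls, a difference of -0.088 (adjusted p = 0.558 by limma). There the groups overlapped and the direction was the opposite of that over all arrays.

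**Figure D1:**
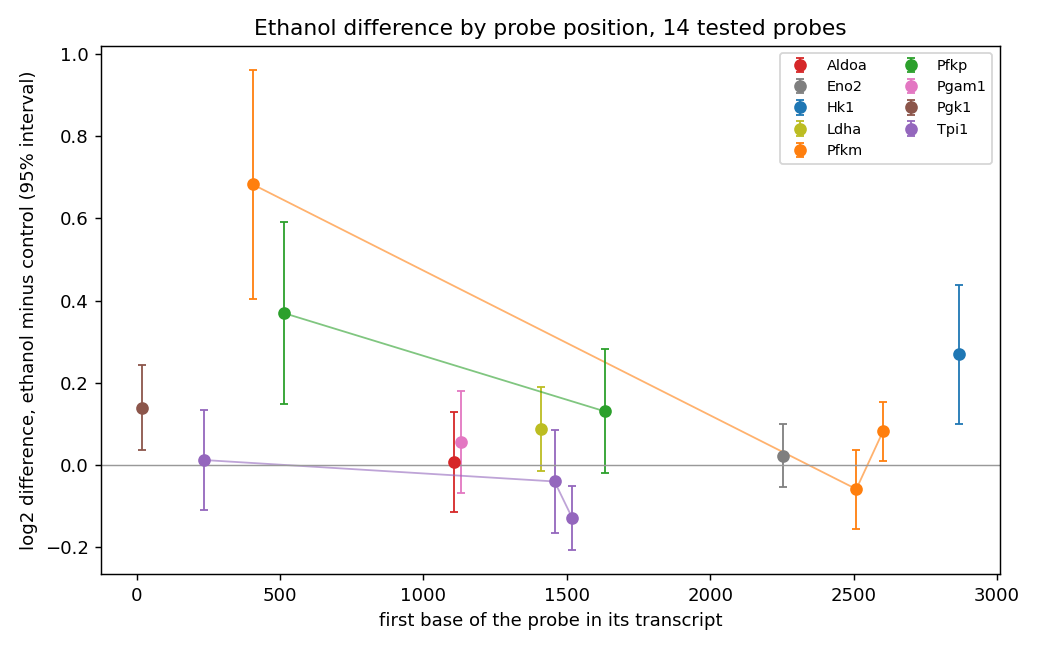
Difference between ethanol-treated mice and controls over all 32 arrays (log2 scale, vertical axis) against the first base of the probe in its transcript (horizontal axis), for the 14 tested probes. Error bars are 95% intervals and lines join probes of 1 gene; the Pfkm probe at base 405 stood at 0.68 and the other Pfkm probes at -0.060 and 0.081.

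A higher value at the upstream probe was common over all arrays. Among the 562 transcripts with tested probes at least 500 bases apart, the most upstream probe had the higher ethanol difference in 407 (72.4%), with a median gap of 0.074. On chip 3 this share was 46.1%, between chips 1 and 2 it was 37.7%, and between odd and even positions it was 27.2%. The gap of Pfkm was in the far part of this range, since the gap reached 0.6 in size in 0.89% of the 562 transcripts. The probes compared here were not matched for signal.

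Aldoa, on chromosome 7, encodes the main aldolase of muscle and brain. Over all arrays the groups differed by 0.0056 (95% interval -0.12 to 0.13, adjusted p = 0.963 by limma). Aldoa ran from 12.64 to 13.34 over the ethanol arrays (median 13.10) and from 12.84 to 13.31 over the control arrays (median 13.07), so the controls lay within the range of the ethanol-treated mice. On chip 3 the difference was -0.15 (adjusted p = 0.179 by limma), with 12.98, 13.10, 13.10 and 13.03 in the ethanol-treated mice and 13.07, 13.31, 13.18 and 13.25 in the controls.

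Tpi1 was lower in ethanol-treated mice by its brightest probe and by neither of the other 2. At base 1519 the ethanol arrays ran from 13.34 to 13.66 (median 13.48) and the control arrays from 13.47 to 13.81 (median 13.60). The ranges overlapped, and 1 of 20 ethanol-treated mice exceeded the control median. Tpi1 fell by 0.13 at this probe (standard error 0.039, adjusted p = 0.0161 by limma). The differences were -0.041 at base 1457 (95% interval -0.17 to 0.085, adjusted p = 0.694 by limma) and 0.011 at base 234 (95% interval -0.11 to 0.13, adjusted p = 0.921 by limma). On chip 3 the probe at base 1519 was 13.51, 13.46, 13.56 and 13.48 in the ethanol-treated mice and 13.50, 13.47, 13.48 and 13.50 in the controls. These values lay together, with a difference of 0.015 (adjusted p = 0.912 by limma). The controls of chip 4, at 13.68 ± 0.085 (SD, n = 8), stood above those of chip 3, at 13.49 ± 0.017 (SD, n = 4), and the ethanol difference, 0.015 on chip 3 and -0.20 between chips, was unequal by 0.21 (adjusted p = 0.0741 by limma). With chip as a random block the difference over all arrays was -0.098 (adjusted p = 0.212 by limma), and after median scaling instead of quantile normalization it was -0.12 (adjusted p = 0.290 by limma).

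Pgk1, on chromosome X, encodes the enzyme of the first ATP-yielding step. Its 1 probe lies at base 20, close to the 5′ end, and was dim: its signal was between 147 and 286 on all arrays, and it was detected on 19 of 20 ethanol arrays and 8 of 12 control arrays. The ethanol arrays ran from 7.39 to 7.95 (median 7.63) and the control arrays from 7.27 to 7.76 (median 7.49). The groups overlapped, and 16 of 20 ethanol-treated mice exceeded the control median. Pgk1 was higher by 0.14 (standard error 0.051, adjusted p = 0.0532 by limma). Without the array of mouse C66 the difference was 0.12 and no longer passed (adjusted p = 0.115 by limma), and with normexp background correction it was 0.29 (adjusted p = 0.0367 by limma). On chip 3 it was -0.038 (adjusted p = 0.799 by limma), with 7.50, 7.39, 7.46 and 7.57 against 7.64, 7.50, 7.34 and 7.59.

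Pgam1, the mutase of brain, and Eno2, the enolase of neurons, did not pass over all arrays, and neither did Ldha, the lactate dehydrogenase chain that is high in muscle. Pgam1 differed by 0.056 (95% interval -0.068 to 0.18, adjusted p = 0.563 by limma) and Eno2 by 0.022 (95% interval -0.054 to 0.098, adjusted p = 0.734 by limma). Ldha differed by 0.088 (95% interval -0.015 to 0.19, adjusted p = 0.230 by limma). In all 3 genes the controls reached lower than any ethanol-treated mouse. The lowest control stood at 9.96 for Pgam1, 13.36 for Eno2 and 11.68 for Ldha, and the lowest ethanol-treated mouse at 10.26, 13.46 and 11.83. These low controls were on chip 4.

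**Figure D2:**
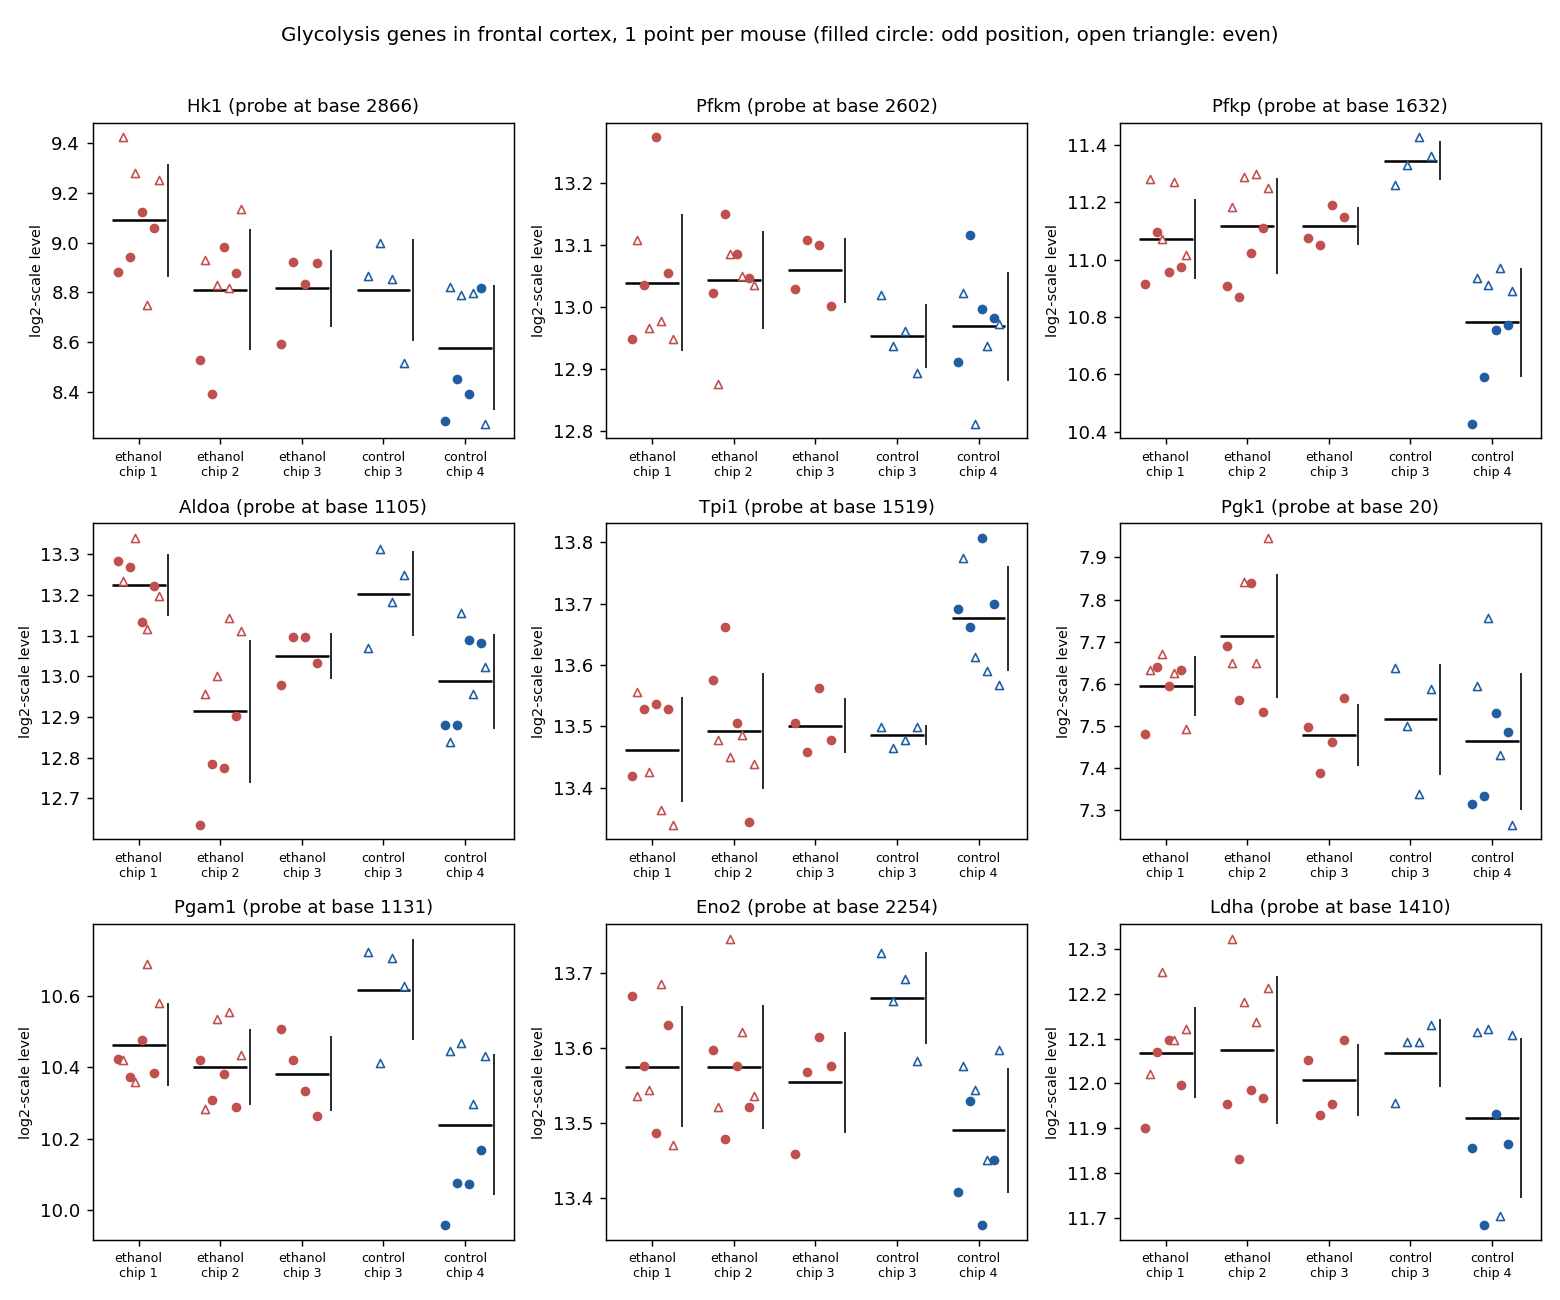
Level of each of the 9 genes by its brightest tested probe (log2 scale), 1 point for each mouse, by group and chip; filled circles are odd and open triangles even positions, horizontal lines are means and vertical lines ± 1 SD. For Tpi1 the controls of chip 4 lie at 13.57 to 13.81 and those of chip 3 at 13.47 to 13.50, among the ethanol-treated mice.

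Chips 1 and 2 held 8 ethanol-treated mice each, and treatment did not vary between them. By the brightest probe, 1 of the 9 genes differed between these chips at an FDR below 10% by limma, where 2.07% of all genes did. This was Aldoa, at 13.12 to 13.34 on chip 1 (median 13.23) and 12.64 to 13.14 on chip 2 (median 12.93). The sets overlapped through 1 mouse of chip 2, A44, which lay above A20 and A9 of chip 1. Aldoa was higher on chip 1 by 0.31 (standard error 0.066, adjusted p = 0.0396 by limma). Hk1 was between 8.75 and 9.42 on chip 1 (median 9.09) and between 8.39 and 9.13 on chip 2 (median 8.85), a difference of 0.28 that did not pass (adjusted p = 0.185 by limma). At an FDR below 1%, 0 of the 9 genes passed by limma, and so did 0 of all 7926 genes tested. Of the 9 genes, 2 had an unadjusted p below 0.05. The median difference of the 9 genes was -0.0046, and that of all genes was -0.0017.

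By single probes, 2 of the 14 passed an FDR of 10% between these chips, where 1.92% of all probes did, and 1 passed an FDR of 1%. The latter was the Tpi1 probe at base 1457, the only 1 of 10187 tested probes to do so (0.00982%). That this gene stands apart between the chips was known when the genes were chosen, so its position among all probes is given as a description. On chip 1 the probe at base 1457 was between 12.25 and 12.51 (median 12.40) and on chip 2 between 11.87 and 12.12 (median 12.03). Every mouse of chip 1 lay above every mouse of chip 2. The difference was 0.40 (standard error 0.053, adjusted p = 0.00102 by limma). The ethanol-treated mice of chip 3 were at 12.40, 12.41, 12.31 and 12.20, and the controls of chips 3 and 4 were at 12.09 to 12.54. All of these lay above the 8 mice of chip 2, except control C65, which at 12.09 lay among them.

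The other Tpi1 probes did not show this difference. At base 1519 the levels were 13.34 to 13.56 on chip 1 (median 13.48) and 13.34 to 13.66 on chip 2 (median 13.48), a difference of -0.031 (95% interval -0.14 to 0.081, adjusted p = 0.838 by limma). At base 234 they were 10.05 to 10.56 (median 10.23) and 9.92 to 10.77 (median 10.31), a difference of -0.076 (95% interval -0.26 to 0.11, adjusted p = 0.733 by limma). At both probes the chips overlapped. The level at base 1457 less that at base 1519, whose sequences are shown above, averaged -1.06 ± 0.060 (SD, n = 8) on chip 1 and -1.48 ± 0.14 (SD, n = 8) on chip 2. The sets did not overlap, with a difference of 0.43. The exact permutation test gave p = 0.000155, the smallest that 8 against 8 allows, and an adjusted p of 0.00218 over the 21 tests. The pair holds the probe already known to stand apart between these chips, so these values describe the gap and are not a new test. The gap between bases 234 and 1519 differed by -0.045 (exact permutation test, p = 0.692). Among 1313 transcripts with several tested probes, the range of the difference between chips 1 and 2 over the probes of a transcript had a median of 0.082 and a 95th percentile of 0.25. For Tpi1 it was 0.47, and 2 transcripts (0.152%), Tpi1 included, had a range of that size or more.

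**Figure D3:**
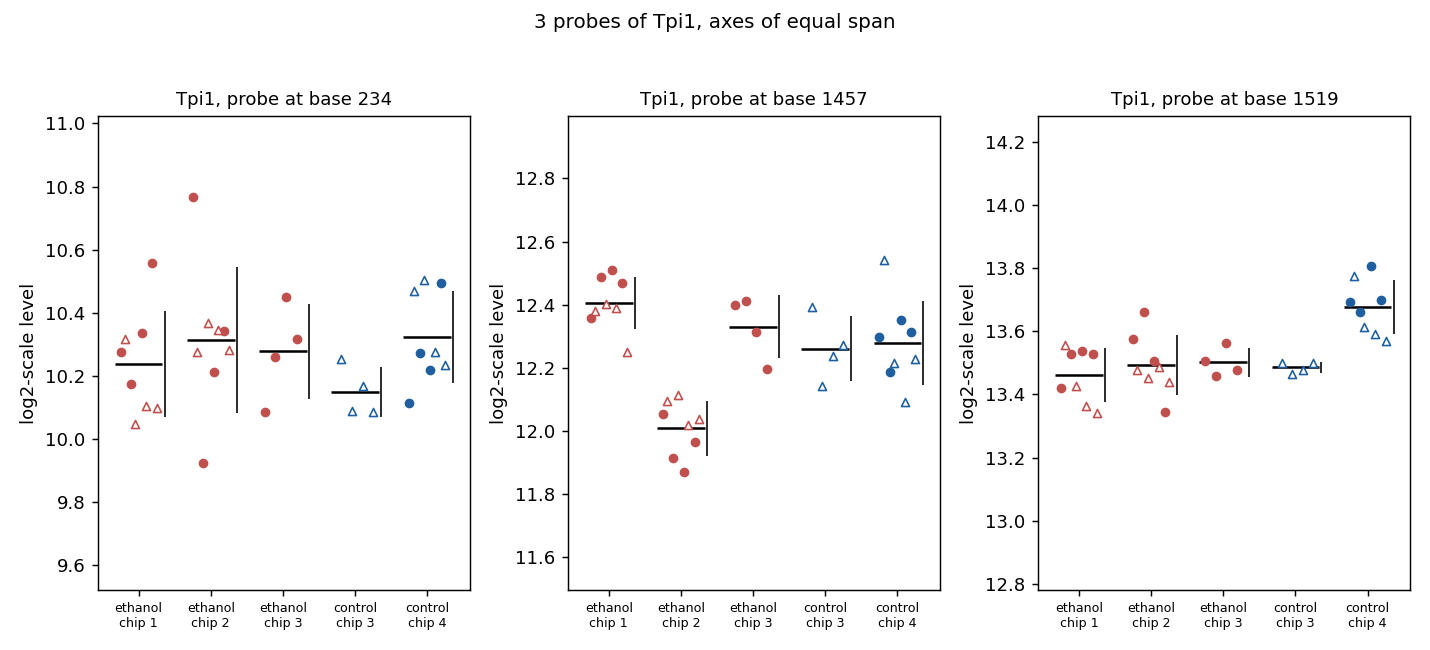
Level of the 3 Tpi1 probes (log2 scale, axes of equal span), 1 point for each mouse, by group and chip; symbols and lines are as in the plot of the 9 genes by group and chip. At base 1457 the 8 mice of chip 2 lie at 11.87 to 12.12, below the 8 of chip 1 at 12.25 to 12.51, while at bases 234 and 1519 the chips overlap.

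The scaling mattered for this comparison. After median scaling instead of quantile normalization, all probes together shifted by -0.095 between chips 1 and 2. Under it the Tpi1 probe at base 1457 was higher on chip 1 by 0.24 (adjusted p = 0.0197 by limma), and Aldoa by 0.16 (adjusted p = 0.105 by limma). By the brightest probe, 3 genes were then called and all were lower on chip 1, against 1 higher and 0 lower after quantile normalization. They were Tpi1 at base 1519 (-0.16), Pfkp (-0.20) and Ldha (-0.17), and relative to the shift of all probes they differed by -0.065, -0.11 and -0.074.

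On chip 3, 2 of the 9 genes were lower in ethanol-treated mice and 0 were higher at an FDR below 10% by limma, beside 16.6% of all genes. They were Pfkp and Pgam1. The Pfkp probe at base 1632 was 11.07, 11.05, 11.19 and 11.15 in the ethanol-treated mice and 11.26, 11.33, 11.43 and 11.36 in the controls. The sets did not overlap, and Pfkp was lower by -0.23 (standard error 0.069, adjusted p = 0.0427 by limma). Pgam1 was 10.51, 10.42, 10.33 and 10.26 in the ethanol-treated mice and 10.72, 10.41, 10.71 and 10.63 in the controls. It was lower by -0.24 (standard error 0.081, adjusted p = 0.0730 by limma), and 1 control, C54, lay among the ethanol-treated mice. Without ethanol-treated mouse A47 or without control C55, 0 of the 9 genes passed by limma, and 2 had an unadjusted p below 0.05. The count was 1 without mouse A49, A50 or C56.

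The ethanol difference on chip 3 was also set against that between chips 1 and 2 and chip 4. It was unequal for 4 of the 9 genes at an FDR below 10% by limma, where 15.9% of all genes passed. The difference on chip 3 less that between chips was -0.54 for Pfkp (adjusted p = 0.00387 by limma), -0.43 for Pgam1 (adjusted p = 0.0140 by limma) and -0.20 for Eno2 (adjusted p = 0.0999 by limma). Pfkp stood at -0.23 on chip 3 and 0.31 between chips, Pgam1 at -0.24 and 0.19, and Eno2 at -0.11 and 0.085. Tpi1 at base 1519 stood at 0.015 on chip 3 and -0.20 between chips. With odd or even position as a covariate, 1 of the 9 genes passed in place of 4. With median scaling 2 genes passed, Pfkp and Pgam1, both with a negative contrast. Median scaling shifted all probes by -0.12 in this contrast, and relative to that shift Pfkp stood at -0.55 and Pgam1 at -0.46. The median over the 9 genes was -0.23, against 0.018 over all genes.

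Position on the chip was examined where treatment does not vary, with 12 arrays at odd and 12 at even positions of chips 1, 2 and 4. Here 4 of the 9 genes were lower at odd positions and 0 higher at an FDR below 10% by limma, beside 20.3% of all genes. They were Pfkp by -0.25 (standard error 0.046, adjusted p = 0.00150 by limma), Ldha by -0.19 (adjusted p = 0.0135 by limma), Pgam1 by -0.18 (adjusted p = 0.0138 by limma) and Hk1 by -0.20 (adjusted p = 0.0948 by limma). For Pfkp the odd arrays of chip 2 were at 10.87 to 11.11 and the even arrays at 11.19 to 11.30, and on chip 4 they were at 10.43 to 10.77 and 10.89 to 10.97. Odd and even positions did not overlap on these chips, whereas on chip 1 they were at 10.91 to 11.10 and 11.02 to 11.28 and overlapped. The differences of the 4 genes between odd and even positions stood beside ethanol differences on chip 3, where the ethanol-treated mice were at the odd positions, of -0.23 for Pfkp, -0.059 for Ldha, -0.24 for Pgam1 and 0.0073 for Hk1. On chips 1, 2 and 4 the odd positions held the mice with the lower numbers, so position and mouse number cannot be told apart. With median scaling, 0 of the 9 genes passed by limma between odd and even positions, and 1 had an unadjusted p below 0.05. The differences were then -0.19 for Hk1, -0.19 for Pfkp, -0.13 for Pgam1 and -0.12 for Ldha. With position as a covariate, 5 of the 9 genes passed between all ethanol-treated mice and all controls, 4 higher and 1 lower, and with chip and position together 0 passed by limma, with 0 at an unadjusted p below 0.05. The shares of all genes in these fits and under median scaling were not counted, so these counts have no share to stand beside.

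**Figure D4:**
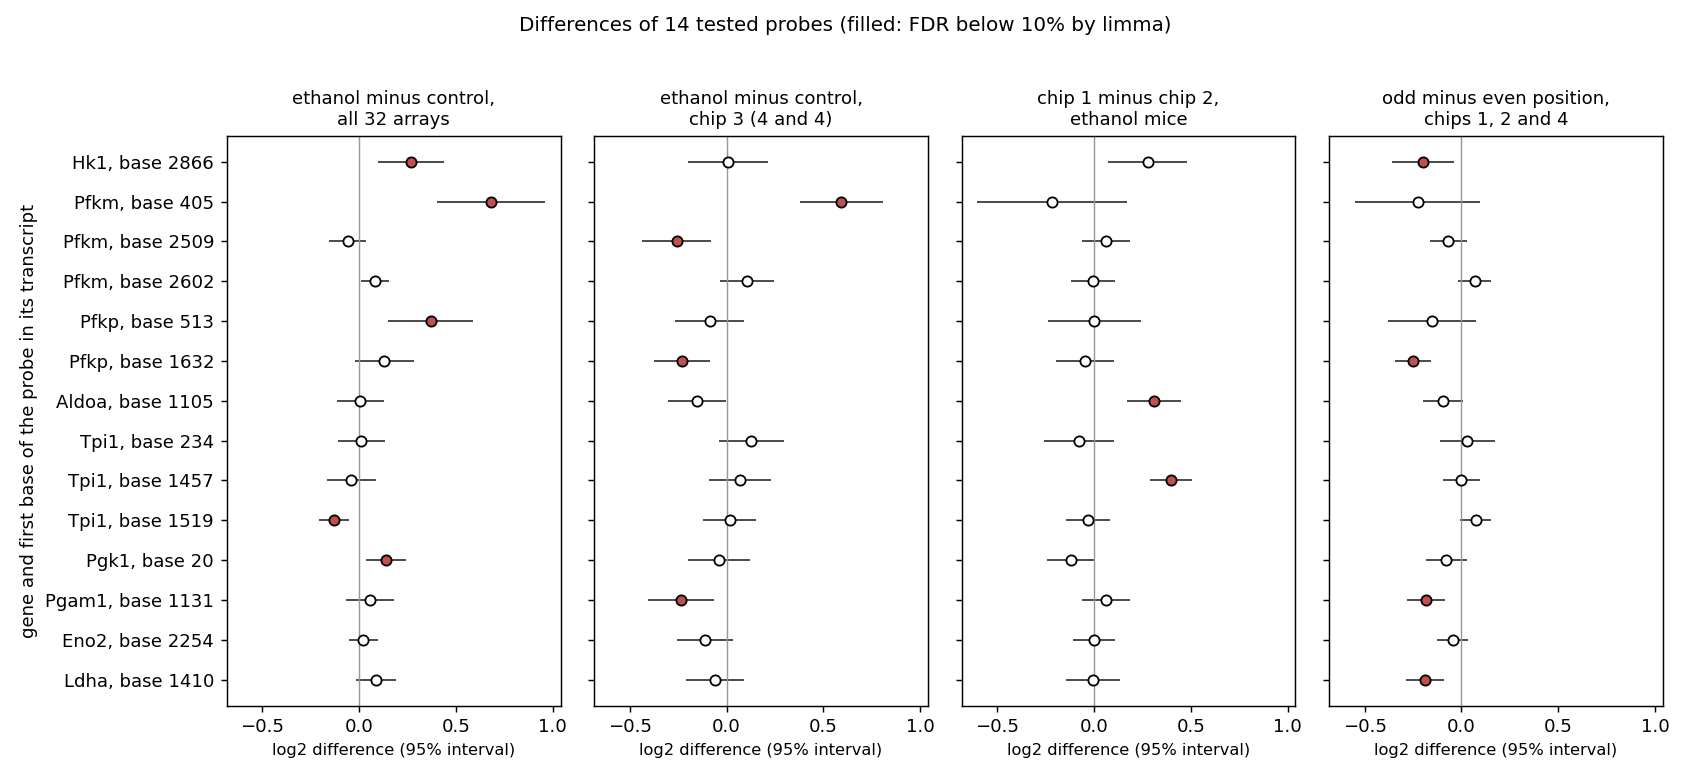
Log2 differences with 95% intervals of the 14 tested probes in 4 comparisons; filled points passed an FDR of 10% by limma. Pfkm at base 405 was positive over all arrays (0.68) and on chip 3 (0.59), Tpi1 at base 1457 stood apart between chips 1 and 2 (0.40), and Pfkp at base 1632 was at -0.23 on chip 3 and -0.25 between odd and even positions.

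The genes were then compared with Tpi1 and with one another across the 32 arrays, after each value was centred within its group and chip. Of the 8 other genes, 0 correlated with Tpi1 (base 1519) at an adjusted p below 0.05 by Pearson's r and a permutation test within group and chip, and 1 had an unadjusted p below 0.05. This was Pfkm, with r = 0.46 (permutation test, p = 0.0189, adjusted p = 0.152 over the 8 genes) and Spearman's rho = 0.52 (p = 0.00546, adjusted p = 0.0437 by the same permutation test). Without the 2 arrays farthest from the median of Tpi1, r was 0.45, and within chips 1 to 4 it was 0.73, 0.33, 0.17 and 0.35. With median scaling 6 of the 8 genes passed, but r with Tpi1 was then higher over the whole table too. Over the 7925 other genes tested, r with Tpi1 had a median of 0.58 after median scaling and 0.025 after quantile normalization, and over the 8 genes 0.62 and -0.22. Over all 36 pairs of genes r had a median of 0.13, and 0 pairs passed an adjusted p of 0.05 by both Pearson's r and Spearman's rho. The highest was that of Pfkp and Pgam1, with r = 0.57 (permutation test, p = 0.00257, adjusted p = 0.0925) and rho = 0.47 (p = 0.0128, adjusted p = 0.153 by the permutation test). It was 0.36, 0.56, -0.27 and 0.88 within chips 1 to 4, and 0.45 without the 2 arrays farthest from the median of Pfkp.

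Pfkp and Pgam1 were the pair that was lower on chip 3 and at odd positions, so the 250 bases before their annotated starts are shown from RefSeq (GRCm38.p6), for Pfkp at chr13:6648772-6649021 on the minus strand and for Pgam1 at chr19:41911621-41911870 on the plus strand. Capitals mark ACGTG or GCGTG on either strand, the core of the sites that hypoxia-inducible factors are known to bind in glycolytic genes.
Pfkp upstream: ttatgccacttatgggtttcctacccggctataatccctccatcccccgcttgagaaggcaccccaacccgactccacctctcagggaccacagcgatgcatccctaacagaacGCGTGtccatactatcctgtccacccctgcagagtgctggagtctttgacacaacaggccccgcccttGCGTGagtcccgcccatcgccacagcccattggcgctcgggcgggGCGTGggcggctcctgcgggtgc
Pgam1 upstream: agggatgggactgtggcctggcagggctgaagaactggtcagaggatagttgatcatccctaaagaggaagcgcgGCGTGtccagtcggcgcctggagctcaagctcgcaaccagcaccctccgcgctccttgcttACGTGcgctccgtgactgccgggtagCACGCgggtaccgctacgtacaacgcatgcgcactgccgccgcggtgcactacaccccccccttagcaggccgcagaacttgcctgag

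Each of these windows held 3 cores. At least 1 core stood in 11 of the 17 windows that the table gives for the 10 genes, and in 38.6% of all 32851 windows of this length. Some of the 17 windows overlap, and by gene a core stood in a window of 7 of the 10, all but Tpi1, Eno2 and Gpi1. Several of the 10 genes have more than 1 window, and the 38.6% is a share of windows. The share by gene over all genes was not counted, so 7 of 10 cannot be set against it. A match describes the letters of the window and is not a measured site.

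Around these enzymes, 9 lists of related genes were counted in the same fits. Between ethanol-treated mice and controls, 10 of their 55 tested members (18.2%) passed an FDR of 10% by limma, beside the 24.7% of all genes. Of 10 tested further isozymes and enzymes of the pathway, 1 was higher and 0 lower. It was Eno1, the enolase of most cell types, at 0.17 (adjusted p = 0.0231 by limma), and its difference on chip 3 was -0.11 (adjusted p = 0.408 by limma). Of 4 tested transport genes, 1 was lower and 0 higher. Slc2a1, the glucose transporter of brain endothelium and astrocytes, was lower by -0.25 (standard error 0.046, adjusted p = 0.000331 by limma) and by -0.18 on chip 3 (adjusted p = 0.178 by limma). Of 8 tested genes of pyruvate dehydrogenase, which turns pyruvate into acetyl-CoA, and its kinases, 3 were higher and 0 lower. They were Pdha1 by 0.15, Pdk1 by 0.14 and Dlat by 0.13, with adjusted p of 0.0541, 0.0571 and 0.0434 by limma. On chip 3 these differences were -0.019, -0.17 and 0.059.

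Of 7 tested genes of the shuttles that carry NADH equivalents into mitochondria, 1 was higher, Gpd2, by 0.29 (adjusted p = 0.0334 by limma). On chip 3, 0 of these 7 were higher and 1 was lower, where 16.6% of all genes passed (limma, FDR below 10%). Of 6 tested glycogen genes, 1 was higher, Pgm2l1, which makes glucose bisphosphate in brain, by 0.37 (adjusted p = 0.00139 by limma). On chip 3 Pgm2l1 differed by 0.042, and its ethanol difference there was smaller than that between chips (adjusted p = 0.0233 by limma). Of 7 tested genes of the pentose phosphate pathway, 2 tested regulators of fructose bisphosphate and 2 tested genes of methylglyoxal removal, 0 passed by limma, and 0, 1 and 1 had an unadjusted p below 0.05. On chip 3, 1 of the 7 pentose phosphate genes was higher and 0 of the 2 regulators passed (limma, FDR below 10%). There 1 of the 2 genes of methylglyoxal removal was lower, by -0.36, where 16.6% of all genes passed (limma, FDR below 10%). Of 9 tested genes of the hypoxia response, 1 was higher, Epas1 by 0.18 (adjusted p = 0.00338 by limma), and 2 were lower, Ddit4 by -0.35 (adjusted p = 0.000349 by limma) and Egln3 by -0.10 (adjusted p = 0.0772 by limma). On chip 3, 2 of these 9 were higher and 1 was lower (limma, FDR below 10%). Ddit4, a stress-induced inhibitor of mTOR signalling, was also lower on chip 3, by -0.39 (adjusted p = 0.0235 by limma). Between chips 1 and 2, Mdh2 was higher on chip 1 by 0.33, Tkt by 0.25, Pgls by 0.24 and Slc2a8 by 0.20, with adjusted p between 0.0351 and 0.0908 by limma. By list these were 1 of 7 tested shuttle genes, 2 of 7 pentose phosphate genes and 1 of 4 transport genes. Of all genes, 2.07% passed between these chips (limma, FDR below 10%). Median scaling shifted all probes by -0.095 in this comparison, and these 4 genes were not examined under it. Eno1, Pdha1, Dlat, Pdk1, Gpd2 and Egln3 were named after their values were seen.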

How the data were processed

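The authors deposited a single bead summary file without normalization. As deposited, the intensity of a probe is the mean signal of its beads on a linear scale, and the deposited detection p-value sets it against negative controls; bead numbers and bead standard errors, other values, stand beside it. The labels name the packages lumi and limma with no version. The step behind the detection p-value and the software that summarized the beads are not given in the sources used here.

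Signals were variance-stabilized from the bead standard errors and quantile-normalized, the steps that the Methods name, with R 4.3.3. The stabilization was coded anew after the model that lumi describes, and lumi itself was not run. Probes detected (p below 0.01) on at least 24 of 32 arrays entered limma 3.58.1 fits without covariates, with Benjamini-Hochberg adjustment over all of them. Every column was matched to its mouse by the labels. Groups were compared over all arrays, on chip 3, between chips 1 and 2, and between odd and even positions. The Methods state no presence filter for limma. Correlations and gaps between probes were tested by permutation with 100000 resamples, or exactly below 10 mice a group, with scipy 1.17.1 and numpy 2.4.6 (Python 3.11.15, pandas 2.3.3); plots used matplotlib 3.10.9. For gaps over all arrays, the groups were permuted without regard to chip. The fits were tested on simulated data with independent noise around the mean of each probe and known added differences. These data held no other chip or position effect, so they do not show how far chip or position enters the ethanol difference. Alternatives covered transform, background, scaling, filter, probe choice, blocks and single arrays. The number of arrays limits the precision, and each probe was read from 21 to 73 beads an array. Several of these genes are known to have processed pseudogenes, and cross-hybridisation to near-identical copies was not checked. The genes, lists and markers were chosen with earlier results of these data known. All 10 genes were to be named, and of the other lists the genes past an FDR of 1% with treatment or 10% between chips 1 and 2, at most 4 a list.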

Additional observations from a re-analysis of the deposited data

Results flagged for a closer look

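The ethanol difference on chip 3 was unlike that between chips 1 and 2 and chip 4 at 6 of the 14 probes (limma interaction contrast, FDR below 10%). The share of all probes was not counted. By gene it was 4 of the 9, where 15.9% of all genes passed. The difference on chip 3 less that between chips was -0.54 for Pfkp at base 1632 and -0.67 for Pfkp at base 513. For Pgam1 it was -0.43, for Pfkm at base 2509 it was -0.27 and for Eno2 it was -0.20. For Tpi1 at base 1519 it was 0.21, from 0.015 on chip 3 and -0.20 between chips. On chip 3 treatment coincides with odd or even position, and with position as a covariate 1 of the 9 genes passed this contrast in place of 4.

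In 70 sets of 4 or 8 mice of 1 group on 1 chip, 1 mouse stood apart from the others of its set, where chance gives about 1 set in 20. For Pfkm at base 2602, mouse A39 of chip 2 was at 12.88, and the nearest of the other 7 mice was at 13.02.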

How the results depend on the processing

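How many of all genes passed was counted for the main fits at both FDR limits and not for the other alternatives. Of all 7926 genes, 241 were higher and 382 lower in ethanol-treated mice over all arrays at an FDR of 1% by limma. Between chips 1 and 2 these numbers were 0 and 0, and on chip 3 they were 131 and 139. For the ethanol difference on chip 3 against that between chips they were 143 and 102. Between odd and even positions they were 144 and 101. Between ethanol-treated mice and controls, 3 of 9 genes passed. The count was 0 at an FDR of 1% and with chip as a fixed block, a random block or together with position, and 5 with the probe of lowest p-value or with position as a covariate. Between chips 1 and 2 it went from 1 to 0 at an FDR of 1%, 2 with the probe of lowest p-value and 3 with median scaling. On chip 3 it went from 2 to 0 at an FDR of 1%, 1 with normexp background, 0 with 1 mean for each group on each chip, and 0 to 2 without single mice. For the ethanol difference on chip 3 against that between chips it went from 4 to 1 at an FDR of 1%, 2 with median scaling, 1 with position as a covariate, and 2 to 5 without single mice. Between odd and even positions it went from 4 to 1 at an FDR of 1% and 0 with median scaling, where Hk1 and Pfkp were at -0.19. With median scaling, 6 genes in place of 0 correlated with Tpi1. Under it r with Tpi1 had a median of 0.58 over all genes. The cause was not tested, except that a fixed chip block leaves the difference to chip 3.

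Directions turned as follows. With chip as a fixed block the ethanol differences were Aldoa -0.15, Eno2 -0.11, Ldha -0.059, Pfkp -0.23 (base 1632) and -0.088 (base 513), Pgam1 -0.24, Pgk1 -0.038, and Tpi1 0.069 (base 1457) and 0.015 (base 1519). With chip as a random block they were Aldoa -0.029, Eno2 -0.0073 and Pgam1 -0.0075. With position as a covariate Tpi1 at base 234 was -0.0034, and with both Aldoa was -0.058, Eno2 -0.067, Pgam1 -0.055 and Tpi1 at base 1457 0.068. With median scaling between chips 1 and 2, Eno2 was -0.14, Pfkm at base 2509 -0.099, Pfkp at base 513 -0.12 and Pgam1 -0.090. Relative to the shift of all probes under that scaling, -0.095, they were -0.043, -0.0050, -0.026 and 0.0048. Of 250 values by probe under these alternatives, 206 kept their direction and side of the threshold. No paired analysis was possible because ethanol-treated mice and controls share no replicate number in the labels. For Pgk1, near background, normexp moved the ethanol difference from 0.14 to 0.29.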

Other observations

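The Pfkp probe at base 3554, near the 3′ end of its transcript, was dim. Its signal ran from 185 to 246 over the ethanol arrays (median 197) and from 151 to 228 over the control arrays (median 176), and it was detected on 9 of 20 and 8 of 12 arrays. The other Pfkp probes had medians of 684 (base 513) and 2295 (base 1632) in ethanol-treated mice and of 476 and 1786 in controls. Before normalization the medians of both were thus higher in ethanol-treated mice, as was the median signal of all probes, at 184 against 165.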
